A study of Homo sapiens with 42 samples.

Results

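TRIB1, TRIB2 and TRIB3, the human Tribbles genes, were taken by symbol from the deposited count tables: 3 of the 50648 genes shared by the tables of all 7 cell lines. Tribbles proteins are pseudokinases. They keep the fold of a protein kinase but phosphorylate little or nothing, and act by bringing other proteins together. Through a tail motif they recruit the ubiquitin ligase COP1 to substrates such as the transcription factor C/EBPα, and they also bind MAP2K kinases and, for TRIB3, AKT. TRIB1 and TRIB2 can drive acute myeloid leukaemia by removing C/EBPα, and TRIB2 is also known from T-cell leukaemia and melanoma. TRIB3 is a stress gene: ATF4 and DDIT3 (CHOP), the factors of the integrated stress response, switch it on when amino acids run short, and TRIB3 protein in turn restrains both.

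The libraries came from 7 established acute lymphoblastic leukaemia (ALL) lines, each a single immortal culture grown in RPMI-1640 medium with serum and glutamine. Nalm6, SUPB15, RS411, REH and 697 are B-precursor lines, and CEM and DND41 are T-cell lines. In every line, untreated cells were compared with cells given 1 IU/ml L-asparaginase, the enzyme that removes asparagine and some glutamine from the medium, for 4 h. There were 3 libraries in each of the 14 groups, from separate experiments per the series' design text, and 42 libraries in all. The labels name no engineered allele and no vehicle for the untreated cells.

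Library totals ran from 15.07 to 77.14 M counts (M for mega), with a median of 40.28 M. Most marker genes followed the lineage labels: the median untreated level of 8 B-lineage markers was 117 to 205 CPM (counts-per-million) in the B-precursor lines and 0.24 and 0.314 CPM in CEM and DND41. The median of 8 T-lineage markers was 159 and 216 CPM in CEM and DND41 and at most 0.0865 CPM elsewhere. CD79A, a B-cell receptor subunit on the first list, went against this in DND41 with 868 CPM, more than any B-lineage marker in a B-precursor line, and the summed B-lineage level of DND41 (648 to 1060 CPM untreated) reached that of 697 (1000 to 1370 CPM). Small noncoding RNAs stood out between libraries: 5 of them took 3.35% to 17.8% of counts, and the lowest share was in the first untreated library of 697. That share averaged 9.58% in untreated and 11.9% in treated libraries, was at most 7.23% in the first untreated libraries of Nalm6, SUPB15, RS411, 697 and DND41, and averaged 10.7% in the untreated libraries without those 5. Its part in the results was not tested.

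TRIB3 is the member whose promoter is known to hold ATF4 sites, and the letters shared with other stress genes are shown here because TRIB3 was also the member with the large response. The motif searched was TGATGNAA on both strands, the composite C/EBP-ATF element. GENCODE v29 places TRIB3 at chr20:362835-397559 on the plus strand of GRCh38. The first exon of its transcript TRIB3-201 lies at chr20:380617-381169, wholly in the 5′ UTR, with the start codon further on at position 388011. That exon holds 3 matches spaced 33 bases apart, and all 24 bases of the 3 printed sites are the same. Capitals mark the motif, each site is written 5′ to 3′ on the strand that reads TGATGNAA, and 1 match each from other stress genes follows.
TRIB3 site 1 (chr20:380884-380907): ggtccgggTGATGCAAaccggagc
TRIB3 site 2 (chr20:380917-380940): ggtccgggTGATGCAAaccggagc
TRIB3 site 3 (chr20:380950-380973): ggtccgggTGATGCAAaccggagc
CHAC1 (chr15:40953254-40953277): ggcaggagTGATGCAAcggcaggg
CEBPG (chr19:33374063-33374086): gcggcgtcTGATGCAAcctgccgg
ASNS (chr7:97872461-97872484): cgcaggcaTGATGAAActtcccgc
ATF3 (chr1:212565208-212565231): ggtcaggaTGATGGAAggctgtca

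The sites outside TRIB3 come from RefSeq promoter windows of GRCh38.p14, which run from 250 bases before to 50 bases after a gene's start. Of 35116 such windows 1270, or 3.62%, held a match. Among 28 genes listed as factors or targets of the stress response, 23 had a window and 7 had a match. These are genes, which can have several windows, while 3.62% is a share of windows. The share of all genes with a match was not computed. The 3 RefSeq windows of TRIB3 begin beyond the exon sites above and held no match, nor did the 1 window of TRIB2. In transcripts, 3 or more matches within the first 400 bases were found in 15 of 81147 coding transcripts of GENCODE v29, or 0.018%, and 1 or more in 5.94%. The 3 matches of TRIB3-201 lie within that limit, so these shares are a description and not a test of TRIB3. Over their whole length, 1 of 4 TRIB3 transcripts (TRIB3-201, with all 3), 2 of 4 TRIB1 transcripts (1 match each, beyond the first 400 bases) and 0 of 4 TRIB2 transcripts held a match. A match describes letters only and does not show binding.

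Read per length, the members held different ranks in different lines. Exon lengths from GENCODE v29 (4138 bases for TRIB1, 4588 for TRIB2, 3434 for TRIB3) were used to turn CPM into CPM per kilobase, since the annotation behind the deposited counts is not given in the sources used here. In untreated cells TRIB3 had the highest mean of the 3 genes in 6 lines, from 8.95 CPM per kilobase in RS411, where TRIB1 stood at 8.79, to 69.2 in Nalm6. The exception was 697, where TRIB2 led with 33.4 CPM per kilobase, TRIB1 had 15.0 and TRIB3 only 0.238. After L-asparaginase TRIB3 in 697 reached 17.1 CPM per kilobase, above TRIB1 at 10.5 and below TRIB2 at 45.1.

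**Figure D1:**
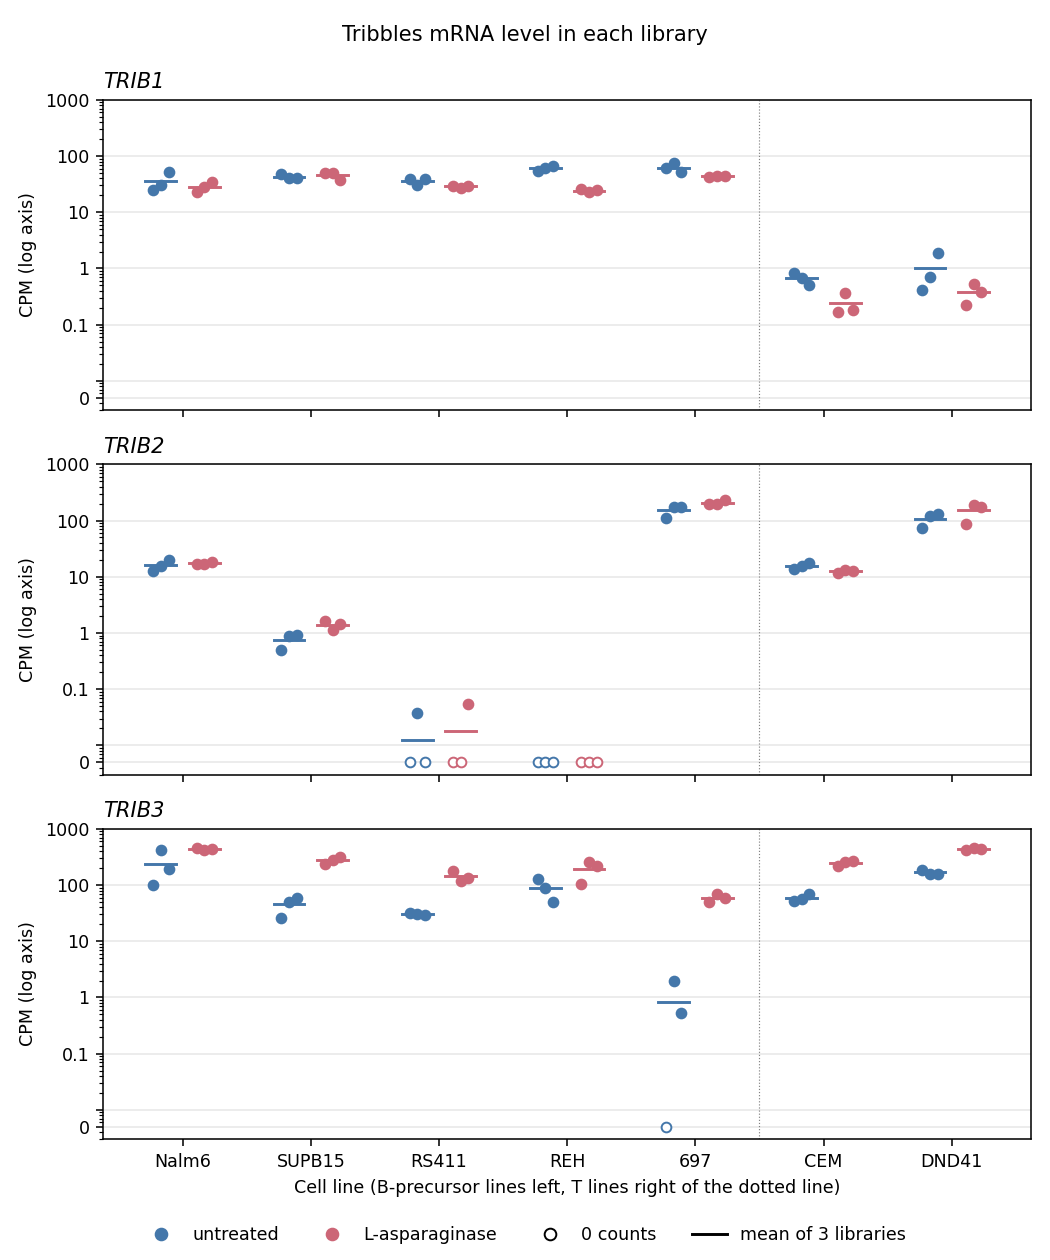
Level of TRIB1, TRIB2 and TRIB3 in each of the 42 libraries, in CPM on a log axis, for untreated (blue) and L-asparaginase (red) cells of 7 lines. Bars are means of 3 libraries, and open symbols at the foot mark libraries with 0 counts: TRIB2 in REH and most RS411 libraries, and TRIB3 in 1 untreated library of 697.

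TRIB3 rose in 6 of the 7 lines and its treated libraries all lay above the untreated ones in 6. Levels are in CPM, and changes come from edgeR's quasi-likelihood test within each line with Benjamini-Hochberg adjustment over all genes tested, called at an adjusted p under 0.05. Across all genes the share that rose was 9.14% in Nalm6, 13.1% in SUPB15, 7.87% in RS411, 13.5% in REH, 1.67% in 697, 19.1% in CEM and 15.3% in DND41. Treated libraries that all lay above the untreated ones were common among all genes, at 16.5% in Nalm6, 22.7% in SUPB15, 19.1% in RS411, 17.9% in REH, 17.4% in 697, 24.3% in CEM and 21.9% in DND41. Averaged over the 7 lines in a joint fit, TRIB3 rose 5.16-fold (log2 fold change 2.37 ± 0.16 SE, adjusted p = 2.8e-14 in edgeR), the 42nd largest increase of 20983 genes. Without 697, the line with the largest response, the average of the other 6 lines was 3.29-fold (1.72 ± 0.14, adjusted p = 4.8e-12 in edgeR). Of all genes, 17.6% rose in the average of the 7 lines. RNA per cell was not measured, so a change in CPM is a change in share of the library.

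The strongest response was in 697, a line that held almost no TRIB3 mRNA before treatment. Its untreated libraries had 0, 52 and 28 TRIB3 counts in replicates 1, 2 and 3, or 0, 1.93 and 0.518 CPM. The library with 0 counts had 32.86 M counts in all, and 3 counts there, the limit that a count of 0 allows, would be 0.0965 CPM. Treated replicates 1, 2 and 3 had 1727, 2652 and 3471 counts, or 49.1, 69.7 and 57.8 CPM. The groups were far apart, with the lowest treated library above the highest untreated one by more than the whole untreated range. The log2 fold change was 6.24 ± 0.95 (adjusted p = 0.024, edgeR), fitted as 75.7-fold, and it was the 4th largest of 15306 genes tested in that line.

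The size fitted in 697 is set against few untreated counts, and the call was lost when any of 5 libraries was left out. Without untreated replicate 1 the log2 fold change was 5.81 and the adjusted p was 2.2e-07, while leaving out any other library of 697 gave adjusted p-values from 0.054 to 0.15 (edgeR) with a log2 fold change of 5.94 to 7.60. In that same library 11 genes had 0 counts against 20 or more in each of the other untreated libraries of 697, and no gene showed this in replicates 2 or 3. TRIB3 was the only gene of the 11 that was called in 697. Among the 11, CTC-260F20.3 was not tested, and of all genes only 1.67% rose and 0.954% fell in that line.

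Untreated replicates of 697 were ordered alike in TRIB3 and in the summed stress targets. The summed level of 14 other stress target genes was 940.1 CPM in replicate 1, 1491 in replicate 3 and 2131 in replicate 2, the same order as for TRIB3. Replicate 1 was the lowest of the 3 untreated libraries for 11 of these 14 genes and replicate 2 the highest for 13. The share of all genes lowest in replicate 1 or highest in replicate 2 was not computed. After treatment the sums were 4368, 4743 and 4416 CPM in replicates 1, 2 and 3, and replicate 2 was again the highest in both. The part of these library differences in the TRIB3 result was not tested.

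In SUPB15 TRIB3 went from 26.2, 50.6 and 59.4 CPM in untreated libraries A, B and C to 240, 283 and 322 CPM. Every treated library was above every untreated library, and the log2 fold change was 2.61 ± 0.27 (adjusted p = 0.00053, edgeR). RS411 was tighter when untreated, at 32.2, 30.3 and 29.7 CPM, and reached 178, 118 and 135 CPM, a log2 fold change of 2.24 ± 0.17 (adjusted p = 0.00071, edgeR). Both lines, like the T-cell line DND41, hold little ASNS, the asparagine synthetase gene that is a classic ATF4 target: its untreated mean was 1.26 ± 0.28 CPM in SUPB15, 1.34 ± 0.12 in RS411 and 1.70 ± 0.28 in DND41 (SD, n = 3). ASNS was not called in any of the 3 (adjusted p = 0.48, 0.93 and 0.26, edgeR), whereas TRIB3 was.

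In the T-cell lines the TRIB3 libraries of a group lay close together. CEM moved from 52.6, 56.9 and 70.5 CPM to 217, 255 and 263 CPM, with no overlap and a log2 fold change of 2.04 ± 0.12 (adjusted p = 4.2e-07, edgeR). DND41 started higher, at 188, 161 and 155 CPM, and reached 427, 448 and 446 CPM, a log2 fold change of 1.42 ± 0.13 (adjusted p = 0.00043, edgeR). The treated libraries of DND41 were thus about as high as those of Nalm6.

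In Nalm6 TRIB3 was already high in 1 untreated library. Untreated libraries A, B and C had 101, 416 and 195 CPM, and treated libraries 458, 427 and 431 CPM. The groups do not overlap, but untreated B lies just under the treated range, and the log2 fold change of 0.93 ± 0.37 was not called (adjusted p = 0.099, edgeR). Without untreated library B the log2 fold change was 1.60 and the adjusted p 0.0024. The same library was the highest of the 3 untreated ones for 12 of the 14 stress targets, whose sum was 2947 CPM against 1834 in A and 2225 in C, and ASNS was at 111 CPM there against 49.8 and 60.2. DDIT3, the stress factor upstream of TRIB3, differed less, at 9.21, 10.3 and 9.63 CPM in A, B and C. The share of all genes that were highest in untreated B was not computed. The part of these differences in the TRIB3 result was not tested.

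REH was the only line in which the TRIB3 groups overlapped. Untreated libraries A, B and C had 128, 88.8 and 51.0 CPM of TRIB3, and treated libraries 105, 255 and 219 CPM. Treated library A, the shallowest of all at 15.07 M counts, lay below untreated A, so that the ratio within a letter was 0.823 for A against 2.87 for B and 4.29 for C. That library was also the lowest of the treated REH libraries for 13 of 14 stress targets, and the share of all genes lowest there was not computed. The log2 fold change was 1.14 ± 0.33 (adjusted p = 0.028, edgeR), and the call was lost without untreated B, treated B or treated C (adjusted p = 0.070 to 0.11, edgeR) with DESeq2 (adjusted p = 0.070) and in the joint fit (1.11, adjusted p = 0.053, edgeR). Without treated library A the TRIB3 response in REH was 1.42 on the log2 scale (adjusted p = 0.0089, edgeR), and without untreated A it was 1.51.

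**Figure D2:**
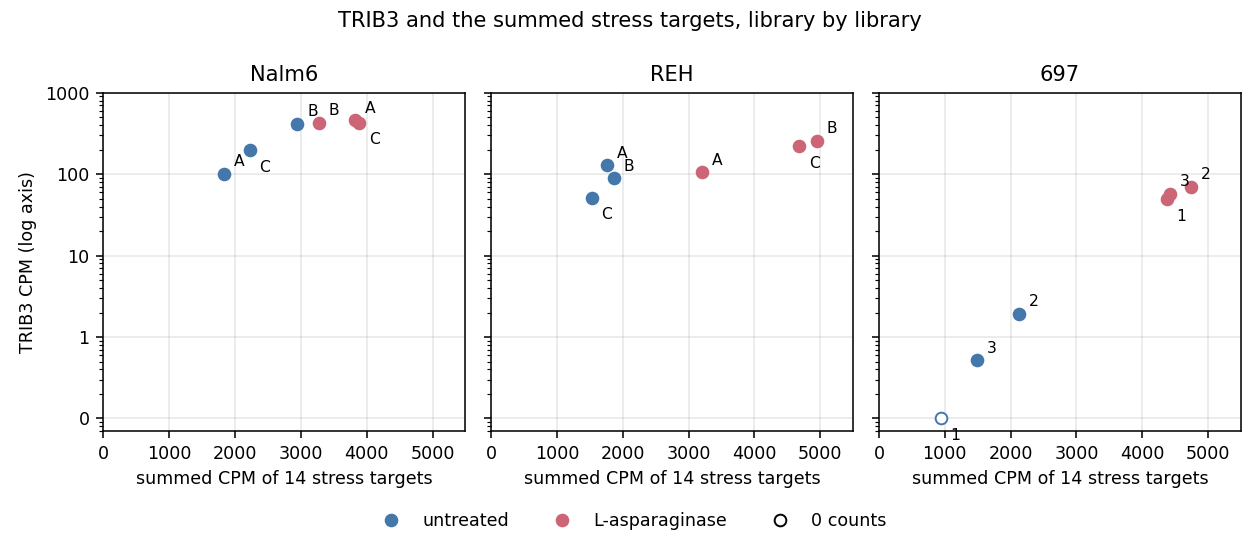
TRIB3 CPM (log axis) against the summed CPM of 14 other stress target genes in each library of Nalm6, REH and 697, with the library letter or number beside the point. Untreated B of Nalm6 and treated A of REH sit nearest to the other group, and the 3 untreated libraries of 697 keep 1 order on both axes.

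The TRIB3 response differed between the lines (interaction adjusted p = 4.5e-06, edgeR joint fit), as did that of 21.1% of all genes. In 697 the response was 4.58 higher on the log2 scale than the other 6 lines on average (SE 0.55, adjusted p = 8e-07), a comparison in which 9.49% of genes were called. Nalm6 lay below the mean of the others, with a difference of -1.73 (SE 0.44, adjusted p = 0.020), where 2.67% of genes were called. The remaining lines were not called against the others, the nearest being REH with a difference of -1.46 (adjusted p = 0.066). For every line but 697, the mean of the others includes 697. In the joint fit the log2 fold change was 0.9 in Nalm6, 1.1 in REH, 1.4 in DND41 and 2.0 in CEM. It was 2.2 in RS411, 2.6 in SUPB15 and 6.3 in 697. Nalm6 was not tested against the others without 697.

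Line means of TRIB3 spanned a wider range before treatment than after it, and 697 was at the low end of both. Untreated means ranked Nalm6 (238 ± 162 CPM, SD, n = 3), DND41 (168 ± 17.5), REH (89.3 ± 38.5), CEM (60.0 ± 9.38), SUPB15 (45.4 ± 17.2), RS411 (30.7 ± 1.30) and 697 (0.816 ± 0.999). The untreated level differed between lines (adjusted p = 4.4e-14, edgeR), as for 87.7% of all genes. Between neighbours in this order only RS411 and 697 were told apart, by 5.35 on the log2 scale (adjusted p = 1.1e-10, edgeR), and the other 5 steps had adjusted p-values from 0.059 to 0.43. From the highest to the lowest line mean the range was 291-fold untreated and 7.48-fold treated, where DND41 had 440 CPM and 697 had 58.9 CPM. Over the other 6 lines the range was 7.73-fold untreated and 3.06-fold treated, with RS411 lowest in both. That narrowing is a description of the line means and was not tested.

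**Figure D3:**
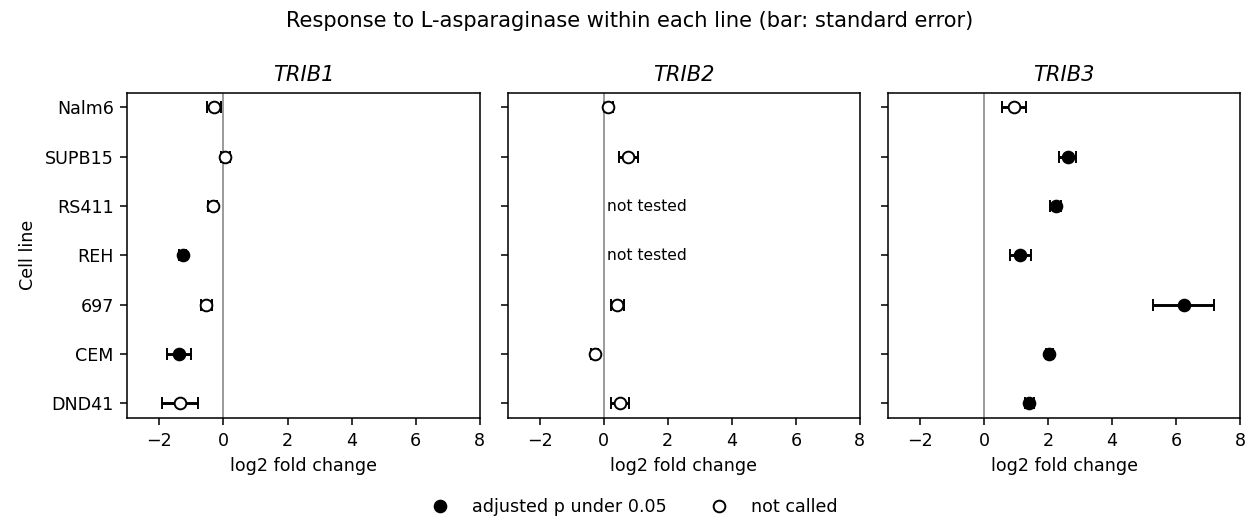
Log2 fold change of each Tribbles gene after L-asparaginase in each line, with its standard error, from edgeR within the line. Filled points passed an adjusted p of 0.05: TRIB3 in 6 lines and TRIB1 in REH and CEM. TRIB2 was not tested in RS411 and REH.

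TRIB1 moved the other way. It fell in REH and CEM, was not called in the other 5 lines, and its estimate was negative in 6 of 7. Of all genes, 13.6% fell in REH, 18.0% in CEM, 11.9% in Nalm6, 13.4% in SUPB15, 5.41% in RS411, 0.954% in 697 and 12.0% in DND41. Treated libraries all lay below the untreated ones for 21.9% of genes in REH, 23.4% in CEM, 22.6% in Nalm6, 21.4% in SUPB15, 17.4% in RS411, 15.4% in 697 and 20.9% in DND41, and for TRIB1 in REH, CEM, 697 and RS411. Averaged over the 7 lines TRIB1 fell by 0.75 on the log2 scale (1.68-fold, SE 0.12, adjusted p = 2.2e-06, edgeR joint fit), as 19.4% of genes fell in that average.

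The clearest decrease of TRIB1 was in REH. Untreated libraries A, B and C had 53.8, 61.2 and 65.2 CPM, and treated libraries 25.6, 22.9 and 24.4 CPM. The groups are well separated, including treated library A, and the log2 fold change was -1.27 ± 0.11 (adjusted p = 6.1e-05, edgeR). Leaving out any 1 library kept it between -1.33 and -1.22.

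In CEM the decrease rests on few counts, 58 in the untreated and 47 in the deeper treated libraries together. The level was 0.827, 0.673 and 0.505 CPM untreated and 0.165, 0.368 and 0.184 CPM treated. No treated library reached an untreated one, and the log2 fold change of -1.39 ± 0.38 was called (adjusted p = 0.012, edgeR), but not without untreated B or without treated C (adjusted p = 0.051 in each case).

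DND41, the other T-cell line, had 0.418, 0.715 and 1.88 CPM of TRIB1 untreated and 0.224, 0.525 and 0.386 CPM treated. These ranges overlap, and the log2 fold change of -1.37 ± 0.56 was not called (adjusted p = 0.097, edgeR). In the joint fit, which shares the spread between lines, TRIB1 was called in DND41 (-1.40, adjusted p = 0.0085, edgeR). Deviations of same-letter libraries in DND41 correlated at 0.29 or more, though different letters reached 0.25, and with the letter as a block TRIB1 was called there too (log2 fold change -1.21, adjusted p = 0.025, edgeR).

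In 697 TRIB1 was at 60.7, 74.5 and 51.5 CPM untreated and 42.9, 43.5 and 43.9 CPM treated. All treated libraries were lower, yet the log2 fold change of -0.53 ± 0.18 was not called (adjusted p = 0.17, edgeR), except without untreated replicate 1 (-0.52, adjusted p = 0.019). RS411 likewise had no overlap, with 39.5, 30.8 and 38.8 CPM against 29.9, 27.1 and 29.3 CPM, and a log2 fold change of -0.33 ± 0.14 (adjusted p = 0.16, edgeR). Nalm6 (-0.30 ± 0.22) and SUPB15 (0.06 ± 0.15) overlapped, with 25.2 to 51.0 CPM against 23.1 to 34.0 CPM and 40.2 to 48.5 CPM against 38.0 to 49.5 CPM.

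The TRIB1 response differed between lines (interaction adjusted p = 0.018, edgeR joint fit). Over the 5 lines with TRIB2 counts, a set without REH and RS411, that difference was not called (adjusted p = 0.058, edgeR joint fit). SUPB15 stood above the mean of the other 6 lines by 0.96 (SE 0.28, adjusted p = 0.047), in a comparison where 3.19% of genes were called. No other line was called against the rest.

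Before treatment, TRIB1 split the lines by lineage. Means ranked 697 (62.2 ± 11.6 CPM, SD, n = 3), REH (60.1 ± 5.76), SUPB15 (43.1 ± 4.63), RS411 (36.4 ± 4.84), Nalm6 (35.7 ± 13.6), DND41 (1.00 ± 0.773) and CEM (0.668 ± 0.161). The step from Nalm6 to DND41 was 5.14 on the log2 scale (adjusted p = 1.2e-16, edgeR), and none of the other 5 neighbours was told apart (adjusted p = 0.12 to 0.99). The mean of the 2 T-cell lines was below that of the 5 B-precursor lines by 5.86 on the log2 CPM scale (two-sided exact permutation test over line means, p = 0.0476, the smallest of 21 arrangements, and 0.143 adjusted over the 3 members). For TRIB3 the difference was 2.04 and for TRIB2 4.87, T-cell lines higher in both, with exact permutation p-values of 0.524 and 0.381, and the line means overlapped. With 2 T-cell lines, lineage and the lines themselves cannot be told apart.

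TRIB2 was present in some lines and absent from others. Its untreated means ranked 697 (153 ± 36.2 CPM, SD, n = 3), DND41 (108 ± 29.1), Nalm6 (16.0 ± 3.53), CEM (15.4 ± 1.82) and SUPB15 (0.763 ± 0.233). RS411 had 2 counts in its untreated and 2 in its treated libraries. REH had 0 counts in all 6 libraries, which allows at most 0.0267 CPM over its 3 untreated libraries (3 counts in the group). Against that limit the level in untreated 697 was at least 5740-fold higher, and in DND41 at least 4063-fold. DND41 was told apart from Nalm6 by 2.76 on the log2 scale (adjusted p = 1.1e-11, edgeR) and CEM from SUPB15 by 4.30 (adjusted p = 1e-14), but not 697 from DND41 (0.50, adjusted p = 0.081) or Nalm6 from CEM (0.06, adjusted p = 0.90). The order did not follow lineage: B-precursor lines held both the highest level and the absence of counts.

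The neighbour comparisons above are between lines with many differences. Called genes made up 49.6% of all genes between 697 and REH, 43.7% between REH and SUPB15, 46.5% between SUPB15 and RS411, 44.8% between RS411 and Nalm6, 47.5% between Nalm6 and DND41 and 35.6% between DND41 and CEM. They made up 54.0% between 697 and DND41, 48.6% between Nalm6 and CEM, 49.3% between CEM and SUPB15, 45.1% between DND41 and REH, 43.7% between REH and CEM and 48.5% between RS411 and 697. In these pairs a called gene is a common outcome, so the size of a step says more than its call.

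TRIB2 was not called after L-asparaginase in any of the 5 lines tested and its estimate was positive in 4 of them and negative in CEM. In 697 it had 112, 177 and 171 CPM untreated and 193, 197 and 231 CPM treated. The treated libraries were all higher, but the log2 fold change of 0.43 ± 0.21 was not called (adjusted p = 0.30, edgeR). SUPB15, near the lower end of detection, had 0.495, 0.880 and 0.914 CPM against 1.61, 1.11 and 1.45 CPM, again without overlap (0.77 ± 0.30, adjusted p = 0.088, edgeR). Nalm6 barely moved, from 12.5, 15.9 and 19.6 CPM to 16.9, 16.9 and 18.0 CPM (0.15 ± 0.15, adjusted p = 0.54, edgeR).

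In the T-cell lines TRIB2 pointed in opposite directions. CEM had 13.7, 15.2 and 17.3 CPM untreated and 11.6, 13.3 and 12.9 CPM treated, all treated libraries lower (log2 fold change -0.28 ± 0.11, adjusted p = 0.063, edgeR). DND41 had 75.1, 122 and 128 CPM untreated and 88.0, 191 and 176 CPM treated, where library A was the lowest of both groups (0.52 ± 0.27, adjusted p = 0.19, edgeR). Deviations of same-letter libraries correlated at 0.16 or more in CEM, where different letters reached 0.023, and at 0.29 or more in DND41, where they reached 0.25. With the letter as a block TRIB2 fell in CEM (-0.28, adjusted p = 0.026) and rose in DND41 (0.48, adjusted p = 0.0061). Whether the lines differ in the TRIB2 response was tested over the 5 lines with counts, a restriction chosen after seeing the data, and was not called (adjusted p = 0.23, edgeR; 18.7% of genes were called). The average of those 5 lines was 0.30 ± 0.12 (adjusted p = 0.047, edgeR; 33.2% of genes called in either direction) and lost its call in 28 of 42 fits that left out 1 library.

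**Figure D4:**
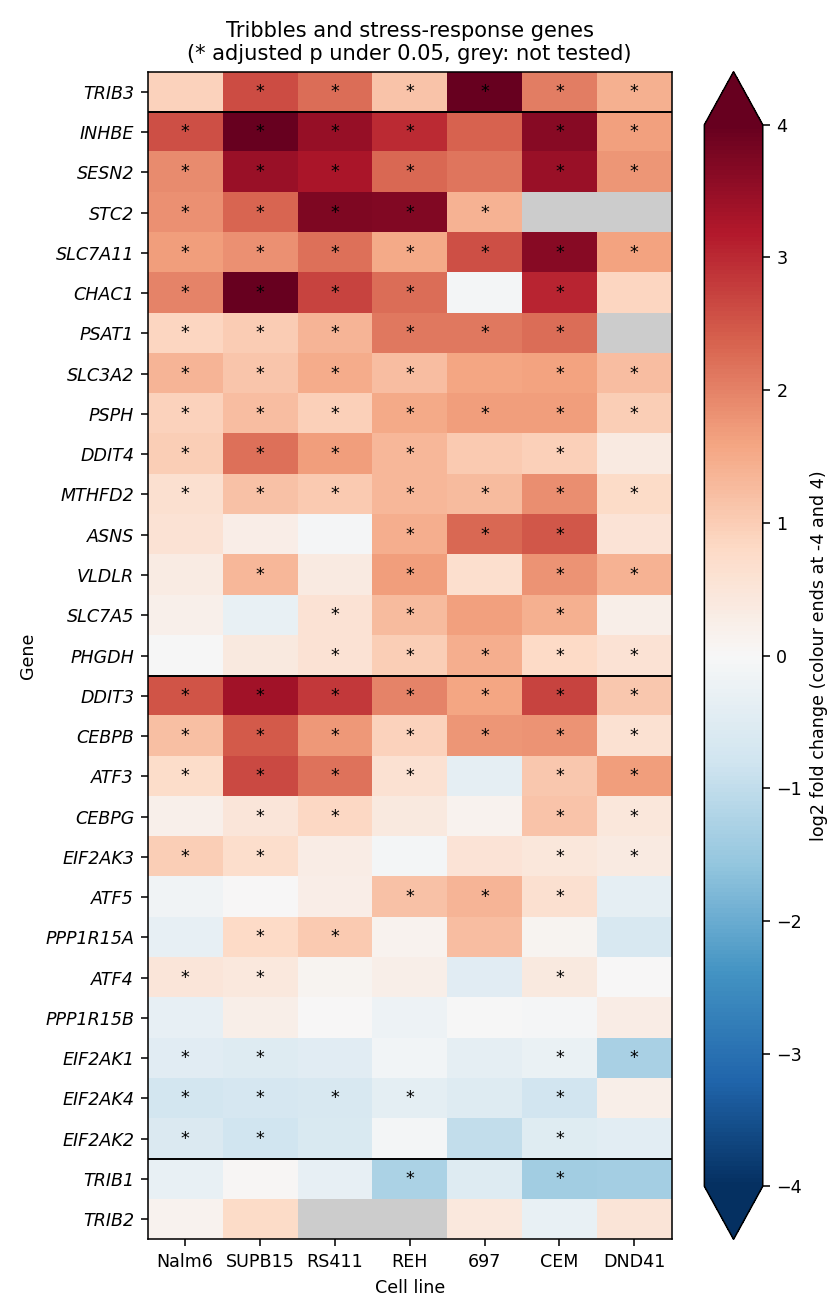
Log2 fold change (colour) within each line for TRIB3, 14 stress targets, 12 stress sensors and factors, TRIB1 and TRIB2, with an asterisk at an adjusted p under 0.05 in edgeR and grey where a gene was not tested. TRIB3 in 697 is past the end of the colour scale at 6.24, while CHAC1 in the same line is near 0.

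Genes of the stress pathway that switches TRIB3 on also rose. All 14 stress targets tested rose in the average of the 7 lines, with a median log2 fold change of 1.31 against -0.02 over all genes. INHBE, an activin subunit, rose by 3.08, SESN2, a sestrin that restrains mTORC1, by 2.59, STC2, a secreted glycoprotein, by 2.51 and SLC7A11, the cystine transporter, by 2.14 on the log2 scale, and TRIB3's 2.37 lay between the last pair. STC2 was at 0 CPM in untreated DND41 and 0.041 CPM in untreated CEM, and was not tested within those lines. Among 12 sensors and factors 8 rose and 3 fell, median 0.37. Of all genes, 17.6% rose and 19.4% fell in the same average. DDIT3 rose by 2.28, CEBPB by 1.48 and ATF3 by 1.20, while ATF4, which is controlled mainly in translation, rose by 0.16 and the kinase EIF2AK2 fell by 0.57. The genes were chosen as known targets, with earlier results of these data known.

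Line by line, TRIB3 can be set beside DDIT3, with no test of the likeness. In 697, with the largest TRIB3 response, DDIT3 rose by 1.57 ± 0.22 (adjusted p = 0.020, edgeR), CHAC1 was at -0.09 ± 0.70 (adjusted p = 0.95) and 7 of 14 targets rose. In Nalm6, where TRIB3 was not called, DDIT3 rose by 2.51 ± 0.14 (adjusted p = 9e-06, edgeR) and 10 of 14 targets rose. In DND41 DDIT3 rose by 1.09 ± 0.15 and 8 of 12 targets rose, and in SUPB15, with DDIT3 at 3.36 ± 0.15, 11 of 14 did. DDIT3 also rose in REH (1.97 ± 0.26), CEM (2.7 ± 0.12) and RS411 (2.83 ± 0.11). There 14 of 14, 13 of 13 and 12 of 14 targets rose. Of all genes, 1.67% rose in 697, 9.14% in Nalm6, 15.3% in DND41, 13.1% in SUPB15, 13.5% in REH, 19.1% in CEM and 7.87% in RS411. The median log2 fold change of the targets was 1.61 in 697, 0.96 in Nalm6, 0.92 in DND41 and 1.29 in SUPB15. It was 1.525 in REH, 1.855 in CEM and 1.417 in RS411. The counts of calls thus do not rank these lines by the size of the change.

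Genes of the ligase that Tribbles proteins serve moved in both directions. Of 8 genes of the COP1 ligase and its relatives 3 rose and 3 fell in the average, median -0.06, where 17.6% of all genes rose and 19.4% fell. STK40, a pseudokinase related to Tribbles that also binds COP1, rose by 0.70 ± 0.06 (adjusted p = 2.7e-12, edgeR) and was called in all 7 lines. DET1, a COP1 partner, rose by 0.59, and DDA1 and CUL4B, parts of the CUL4 ligase, fell by 0.42 and 0.34. COP1 itself, listed as RFWD2, fell by 0.25 ± 0.04 (adjusted p = 1.5e-05, edgeR), with calls in SUPB15 and RS411 only among the lines.

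Among COP1 substrates 7 were tested in the average, of which 2 rose and 2 fell, against 17.6% and 19.4% of all genes. With 7 genes these counts are near the background. CEBPB, also a stress factor, and JUN, an AP-1 subunit, rose by 1.48 and 0.91, while ETV5, an ETS factor, and ACACA, acetyl-CoA carboxylase, fell by 0.26 and 0.17. CEBPA, the substrate tied to TRIB1 and TRIB2 in myeloid leukaemia, had 0 counts in both DND41 groups, so that its average has no usable error. Untreated CEBPA was at 45.2 ± 25.4 CPM in SUPB15, 19.0 ± 13.3 in 697 and 10.1 ± 3.10 in RS411 (SD, n = 3), and it fell in RS411 by 1.05 (adjusted p = 0.024, edgeR) and in CEM by 1.02 (adjusted p = 0.023), from a level of 0.559 CPM. Nalm6 had 2.07 ± 0.83 CPM untreated, and REH and DND41 0 CPM. The line order of CEBPA was not that of TRIB2: SUPB15, highest in CEBPA, had 0.763 CPM of TRIB2, and DND41, second in TRIB2, had no CEBPA counts.

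Of 10 kinases and FOXO factors known as partners of Tribbles proteins 3 rose and 2 fell in the average, with a median of -0.01, against 17.6% and 19.4% of all genes. With 10 genes these counts are near the background. FOXO3 rose by 0.28, MAP2K7 by 0.28 and MAP2K1, the MEK kinase, by 0.22, while FOXO4 fell by 0.39. Transcription factors tied to TRIB2 in leukaemia gave 1 call in the average, MYB, which rose by 0.50 ± 0.08 (adjusted p = 8.8e-06, edgeR). MEIS1, HOXA9 and TAL1 had no usable error there, since lines lacked counts. In DND41, where 15.3% of all genes rose, 4 of 5 of these factors did: MYB by 1.65, GATA3 by 1.24, NOTCH1 by 1.04 and RUNX1 by 0.45. In CEM, which held less TRIB2 and where 19.1% of all genes rose, 4 of 7 rose and TAL1 fell by 0.30 (adjusted p = 0.022, edgeR). In 697, the line highest in TRIB2, 0 of 5 rose, against 1.67% of all genes. In Nalm6 0 of 5 rose and 1 fell, and in SUPB15 0 of 5 rose, against 9.14% and 13.1% of all genes rising. RS411 had 1 of 7 rise, and REH 1 of 6 rise and 1 fall, against 7.87% and 13.5% of all genes rising.

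Across the 14 group means of log2 CPM, the genes whose profile was most like TRIB1 were CCDC50 (Pearson r = 0.987), CDK14 (0.985), BLNK (0.984), ZCCHC14 (0.983) and KIF16B (0.983). All 5 were at most 0.196 CPM in the group means of CEM and DND41 and at least 10.4 CPM in those of the B-precursor lines. The part of that step in these r values was not tested. BLNK is a B-cell adaptor protein, and it fell with treatment too, by 1.26 on the log2 scale in the average of the 7 lines (adjusted p = 8.4e-05, edgeR). CDK14 fell by 0.35 (adjusted p = 0.03, edgeR), and the averages of CCDC50, ZCCHC14 and KIF16B had no usable error. Most like TRIB2 were TNFRSF8 (0.956), CHFR (0.946), SYCE2 (0.936), PHF21B (0.921) and ATOX1 (0.900). TNFRSF8 encodes the receptor CD30, at 9.33 CPM in untreated Nalm6, 9.73 in 697, 5.06 in CEM and 12.1 in DND41 and at most 0.222 CPM in the other untreated lines. Most like TRIB3 were IFNAR1 (0.930), GPS1 (0.928), C19orf25 (0.927), STK11IP (0.923) and AKIRIN2 (0.921). Like TRIB3, all 5 had their lowest group mean in untreated 697, and the part of that group in these r values was not tested. The genes named are the 5 highest of 12174 for each member, the points are 7 lines measured untreated and treated, and no stress target was among them.

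The members did not resemble each other over the same 14 means. Pearson r was -0.43 to -0.13 for the 3 pairs, given as a description of points that share lines and library depth.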

How the data were processed

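The deposited files are tables of raw read counts per gene, 1 table for each line, made by the authors and aligned to hg19 per the submitters' processing notes. The aligner, counter, annotation and strand setting are not given in the sources that were used. The 697 columns carry the replicate numbers of the labels. The columns of the other lines carry letters that match no label, so they were assigned to their group only and a letter is called a library. Genes were joined by symbol (50648 in all), and a TRIB row was present in each of the 7 tables.

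The counts were tested with edgeR 4.0.16 (R 4.3.3): genes with too few counts were left out with filterByExpr at a minimum count of 10, libraries were scaled by TMM, and the quasi-likelihood test was run within each line and in a joint fit over 42 libraries. CPM use the TMM-scaled totals. Depth was 15.07 to 77.14 M counts. Floors of 3 counts cover counting error only. P-values were adjusted by Benjamini-Hochberg over all genes tested. DESeq2 1.42.0, other size factors, no filter, a replicate block, left-out libraries and lines and, added after seeing the data, the contrast of each line in the joint fit were alternatives. Both fits recovered known changes in simulated counts. The simulation used a single fixed spread between libraries and changed only well-counted genes. It therefore does not cover genes with few counts or groups with an outlying library.

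The numbers or letters were taken to pair libraries where every same-numbered pair of deviations correlated above 0.1. The lowest such correlation was 0.11 in SUPB15, 0.17 in RS411, 0.30 in REH, 0.16 in CEM and 0.29 in DND41, but 0.043 in Nalm6 and -0.048 in 697. The highest correlation between different numbers or letters was 0.023 in CEM, 0.025 in REH, 0.078 in SUPB15, 0.10 in Nalm6, 0.15 in 697, 0.22 in RS411 and 0.25 in DND41, and it passed the lowest same-letter value in RS411, Nalm6 and 697. The named genes were the 3 members, up to 4 called members of each list with the largest change in the average, ATF4, DDIT3, CEBPB, COP1 and CEBPA, and the 5 genes most like each member among those with an average log2 CPM of at least 1. The members and lists were chosen with earlier results of these data known. Named genes with 0 counts in both groups of a line had no usable standard error in averages that include that line. Promoter sequences are credited to RefSeq (GRCh38.p14) and transcripts to GENCODE v29. Both are of another build than the counts, and no coordinate was converted.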

Additional observations from a re-analysis of the deposited data

Results flagged for a closer look

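The response of TRIB3 to L-asparaginase differed between the lines (interaction adjusted p = 4.5e-06, edgeR). Its log2 fold change in 697 was 4.58 above the mean of the other 6 lines. In Nalm6 the difference from the mean of the others, which includes 697, was -1.73. The TRIB1 response also differed between the lines (interaction adjusted p = 0.018, edgeR), and in SUPB15 it was 0.96 above the mean of the others on the log2 scale.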

How the results depend on the processing

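TRIB3 and TRIB1 kept their direction and call in the average of the 7 lines under every alternative run. Their averages were 2.31 to 2.54 and -0.82 to -0.63 when 1 library was left out. When 1 line was left out they were 1.72 to 2.63 and -0.88 to -0.63. Their difference in response and in untreated level between the 7 lines also stayed called, but neither was rerun with a line left out. Over the 5 lines with TRIB2 counts, the TRIB1 difference in response was not called (adjusted p = 0.058, edgeR joint fit). The lowest TRIB3 average, 1.72, was without 697. TRIB3 in SUPB15, RS411, CEM and DND41 and TRIB1 in REH also stayed called. The cause of the changes below was not tested. With the replicate block TRIB3 was called in Nalm6 (1.16) and not in 697 (6.73, adjusted p = 0.057), lines in which the numbers do not pair the libraries, TRIB2 was called in CEM (-0.28) and DND41 (0.48) and TRIB1 in DND41 (-1.21), and the number of changed genes became 6709 in REH, 26 in 697 and 6126 in DND41. The block changed no other call. DESeq2 did not call TRIB3 in REH (1.15) and called 1445 genes in 697, against 401 with edgeR. The contrasts of single lines in the joint fit, added after seeing the data, did not call TRIB3 in REH (1.11, adjusted p = 0.053), called TRIB1 in DND41 (-1.40, adjusted p = 0.0085), and gave more changed genes in 697 (4170) and fewer in CEM (2965).

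With 1 library left out, the log2 fold change of TRIB1 ran in Nalm6 from -0.47 to 0.042 and in SUPB15 from -0.011 to 0.21, with the 697 range from -0.67 to -0.39, the CEM range from -1.90 to -1.21 and the DND41 range from -1.73 to -0.57. That of TRIB3 ran from 0.58 to 1.60 in Nalm6, 0.85 to 1.51 in REH and 5.81 to 7.60 in 697. That of TRIB2 ran from -0.35 to -0.19 in CEM and 0.31 to 0.79 in DND41. TRIB1 was called in DND41 without untreated A, and TRIB2 in CEM without untreated A and in DND41 without treated A. The number of changed genes ran between 392 and 4640 for RS411, 1703 and 3800 for Nalm6, 1901 and 5397 for DND41, 2468 and 4588 for REH, and 1769 and 6445 for SUPB15. For 697 it ran from 11 to 3751, the highest being without untreated replicate 1.

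For TRIB2 the average over all 7 lines (0.23, -0.16 to 0.60 with 1 library left out) has no usable error, because REH and RS411 lack counts. The average of 5 lines, chosen after seeing the data, was 0.26 to 0.36 with 1 library left out. It was not called without the filter (0.31), without the first untreated libraries of 5 lines (0.16), without 3 treated libraries (0.29), or without SUPB15 (0.18), 697 (0.27) or DND41 (0.26). Without the first untreated libraries the response of 7549 genes differed between lines, against 4435. Depth limits TRIB2 in REH and RS411, at or under 3 counts a group, and TRIB1 in the T-cell lines, with 9 to 92 counts a library.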
